A study of Mus musculus with 32 samples.

Results

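The comparison described here sets chromatin-associated RNA (caRNA) of mouse embryonic stem cells labelled Mettl14 CKO against that of cells labelled Mettl14 Control. RNA carrying N6-methyladenosine (m6A) was pulled down with an antibody and sequenced (MeRIP-seq), and 1 list of enriched stretches (peaks) per immunoprecipitation library was available. Its members were the 4 peak lists of that line and RNA type, 2 from CKO cells and 2 from Control cells, of 16 lists in the series. Peaks of the 4 lists were merged by strand wherever they overlapped by at least 1 bp, which gave 54426 regions, against 80081 when all 16 lists were merged in the same way. A region was called lost when both Control lists and no CKO list held a peak there, gained in the reverse case, and retained when all 4 lists held one.

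Both groups were C57BL/6 embryonic stem cells grown in serum with LIF at 1000 U/ml, CHIR99021 at 3 µM and PD0325901 at 1 µM, so the Control cells received the same inhibitors as the CKO cells. LIF maintains self-renewal through STAT3, CHIR99021 inhibits the kinase GSK3 and PD0325901 inhibits the kinase MEK. The labels do not say how the deletion was made, how complete it was, or whether each genotype is 1 clone. They also do not say whether replicates 1 and 2 came from separate cultures, so the spread between them may be technical. RNA was taken from the chromatin fraction, ribosomal RNA was depleted, and m6A spike-in RNA was added before fragmentation. Read depth is unknown, and a missing peak can mean less methylation, less RNA or fewer reads, which cannot be told apart in these lists.

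METTL14 is the RNA-binding partner of METTL3, the catalytic subunit, in the nuclear complex that deposits m6A co-transcriptionally. WTAP, VIRMA, ZC3H13, CBLL1 and the RBM15 proteins recruit or stabilise the complex, YTH proteins read the mark, and FTO and ALKBH5 remove it. In mature mRNA the mark is best known near stop codons and in long internal exons, often in a DRACH sequence context of which GGAC is the most familiar core. RNA on chromatin also holds introns, antisense transcripts and other unspliced or unstable RNA.

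The letters under a peak could be read where a peak summit lay in the 300 bases around a RefSeq gene start (250 before and 50 after). Such summits were found in 79 lost, 43 gained and 356 retained regions, which were 1.42%, 1.51% and 1.38% of each class. The stretches below were taken from the RefSeq promoter table of GRCm38.p6, the same build as mm10, for the regions of highest fold enrichment in each class with at least 100 bases to print, 2 on the strand of the gene and 1 on the opposite strand. Each line gives the part of the region inside that window, up to 30 bases past the gene start, 5′ to 3′ on the strand of the peak, with every GGAC in capitals, and GGACT where a T followed.

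The 3 lost stretches show regions that both Control lists held and neither CKO list did.
Mrpl48, sense, chr7:100608407-100608551, - strand: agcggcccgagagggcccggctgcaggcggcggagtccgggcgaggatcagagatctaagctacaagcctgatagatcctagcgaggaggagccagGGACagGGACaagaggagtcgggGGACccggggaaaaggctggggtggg
6330418K02Rik, sense, chr5:138263837-138264046, + strand: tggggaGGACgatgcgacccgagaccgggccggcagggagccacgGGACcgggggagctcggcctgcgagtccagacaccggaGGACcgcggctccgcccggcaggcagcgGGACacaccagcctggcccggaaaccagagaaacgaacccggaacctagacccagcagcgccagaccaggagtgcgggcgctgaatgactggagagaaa
Apobec3, antisense, chr15:79894773-79895038, - strand: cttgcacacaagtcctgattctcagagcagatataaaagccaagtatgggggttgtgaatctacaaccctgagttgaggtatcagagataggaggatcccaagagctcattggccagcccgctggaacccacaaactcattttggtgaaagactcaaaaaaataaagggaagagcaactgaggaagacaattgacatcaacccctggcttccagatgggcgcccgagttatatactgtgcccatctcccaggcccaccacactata

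The 3 gained stretches show the reverse.
Phf21a, sense, chr2:92221357-92221501, + strand: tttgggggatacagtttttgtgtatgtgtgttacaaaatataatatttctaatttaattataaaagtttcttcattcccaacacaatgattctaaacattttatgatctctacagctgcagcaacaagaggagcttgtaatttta
Gm40481, sense, chr12:86241888-86242052, - strand: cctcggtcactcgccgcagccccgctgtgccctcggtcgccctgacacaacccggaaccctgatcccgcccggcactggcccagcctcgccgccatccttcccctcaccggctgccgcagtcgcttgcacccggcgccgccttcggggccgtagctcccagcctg
Sh2b1, antisense, chr7:126475205-126475380, + strand: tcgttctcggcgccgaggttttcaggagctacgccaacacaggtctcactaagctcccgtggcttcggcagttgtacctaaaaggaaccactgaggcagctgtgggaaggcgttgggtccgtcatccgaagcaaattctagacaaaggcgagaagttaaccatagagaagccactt

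The 3 retained stretches show regions of high fold in all 4 lists.
Syncrip, sense, chr9:88482368-88482602, - strand: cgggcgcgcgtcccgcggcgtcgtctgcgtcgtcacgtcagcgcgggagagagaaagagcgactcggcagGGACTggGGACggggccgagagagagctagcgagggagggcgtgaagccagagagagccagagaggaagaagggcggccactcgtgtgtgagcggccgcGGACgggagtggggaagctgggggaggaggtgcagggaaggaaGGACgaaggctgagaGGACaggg
Gli2, sense, chr1:119053590-119053869, - strand: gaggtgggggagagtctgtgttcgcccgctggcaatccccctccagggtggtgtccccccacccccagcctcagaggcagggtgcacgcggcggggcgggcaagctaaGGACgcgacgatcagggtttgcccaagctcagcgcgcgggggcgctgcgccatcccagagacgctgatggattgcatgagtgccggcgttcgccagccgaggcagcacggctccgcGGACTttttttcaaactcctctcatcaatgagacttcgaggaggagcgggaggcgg
2210408F21Rik, antisense, chr6:31220101-31220277, - strand: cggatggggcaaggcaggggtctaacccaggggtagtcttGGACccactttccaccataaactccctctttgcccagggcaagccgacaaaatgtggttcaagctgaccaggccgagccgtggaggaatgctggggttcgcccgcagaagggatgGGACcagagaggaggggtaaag

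In the lost set, the stretch at Mrpl48, which encodes a mitochondrial ribosomal protein, held 3 GGAC and that at 6330418K02Rik held 4, while the antisense stretch at Apobec3, a cytidine deaminase that restricts retroviruses, held 0. Its folds were 6.82 and 6.41 in the Control lists, and those of Mrpl48 were 6.93 and 7.05. All 3 gained stretches held 0 GGAC. They lay at Phf21a, which encodes a reader of unmethylated H3K4, at the long noncoding RNA gene Gm40481 and antisense to Sh2b1, an adaptor of receptor tyrosine kinases. Phf21a had folds of 6.39 and 8.81 in the CKO lists. In the retained set, Syncrip, an RNA-binding protein gene, held 5 GGAC of which 1 was GGACT, and its folds were 24.4 and 26.9 in CKO, against 21.7 and 21.2 in Control. Gli2, a transcription factor of Hedgehog signalling, held 2, with folds of 21.02 and 22.5 in CKO and 22.3 and 21.3 in Control.

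Over the whole windows, read on the strand of the peak only, GGAC was found in 85.3% of 184 windows with a sense retained summit, 84.2% of 19 with a gained one and 82.9% of 41 with a lost one. All 32851 promoter windows of the table held it in 65.6% when read on the strand of the gene. The longer GGACT, which contains GGAC, was found in 41.3%, 31.6% and 31.7% of the same 3 sets, against 26.1% of all windows. Windows with an antisense summit held GGAC in 87.3% of 213 retained, 85.2% of 27 gained and 77.1% of 48 lost cases, against 66.1% of all windows read on that strand. They held GGACT in 41.8%, 18.5% and 31.2% of these sets, against 26.0% of all, so the gained antisense windows lay below the share of all windows. No test was made between these shares. A match is a description of the letters, not a methylated site.

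CKO lists were shorter than Control lists and their peaks were narrower. They held 38272 and 39385 peaks in CKO and 42514 and 41315 in Control. The covered length was 16.4 and 17.0 Mb in CKO, against 20.3 and 19.7 Mb in Control. The median peak width was 279 and 281 bp in CKO and 310 bp in both Control lists, and 7.46% and 7.53% of CKO peaks spanned at least 1000 bp, against 9.56% and 9.51% of Control peaks. The groups did not overlap in any of these measures, but 2 libraries against 2 cannot give a two-sided exact permutation p below 0.333, which each of them reached. These are single values per list, so the order of the groups is the measurement and no threshold was passed.

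**Figure D1:**
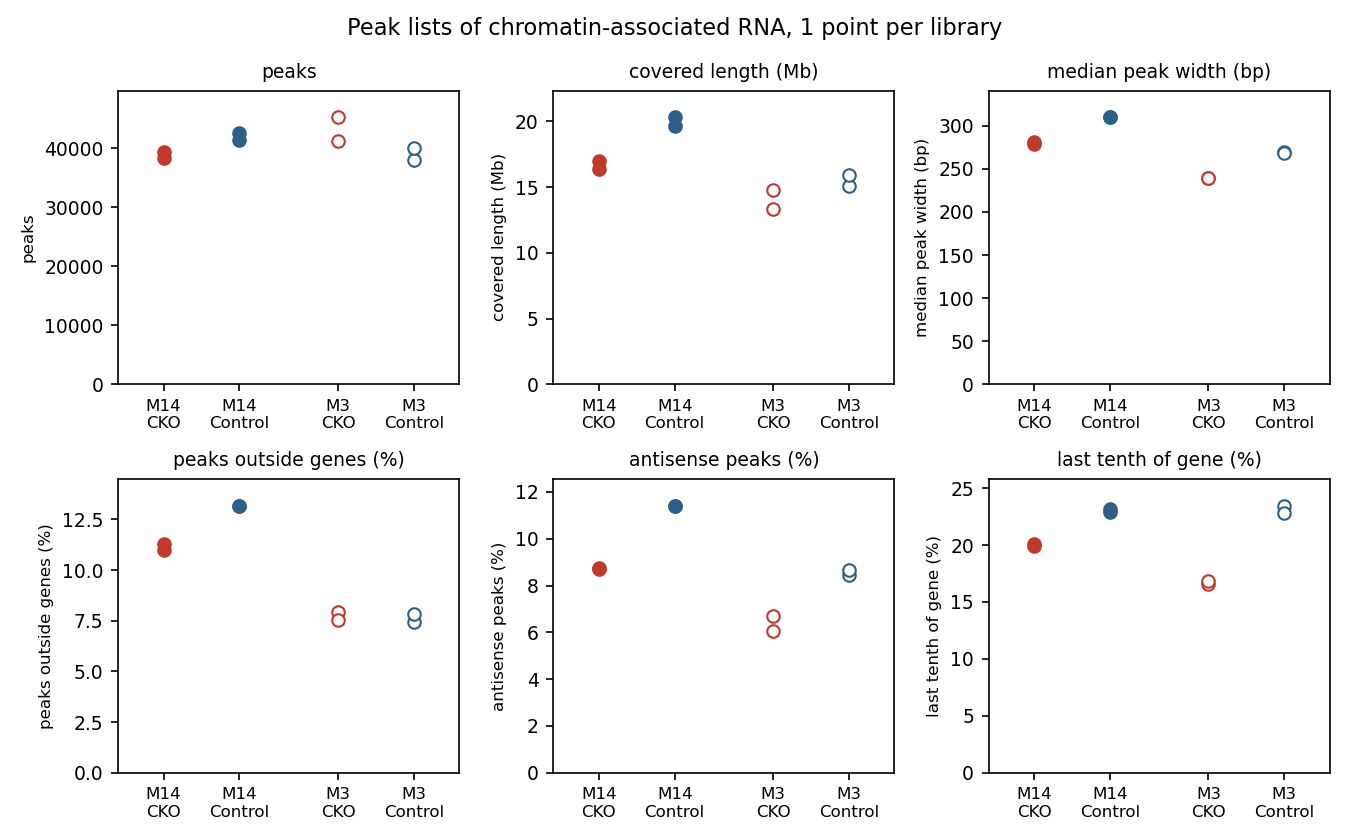
Each panel plots 1 measure of the caRNA peak lists on its own axis from 0 (peaks, covered length in Mb, median width in bp, and 3 shares in percent), with 1 point per library, filled for the Mettl14 line (M14) and open for the Mettl3 line (M3), CKO in red and Control in blue. The CKO points of the Mettl14 line lie below its Control points in all 6 panels, while in the Mettl3 line the CKO lists hold more peaks (45241 and 41162, against 37955 and 40090).

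The same direction was seen inside the retained regions, which all 4 lists shared. Their peaks covered 14.2 and 14.5 Mb in CKO, against 16.2 and 16.0 Mb in Control, with a median of 365 and 376 bp per region in CKO and 431 and 424 bp in Control. A retained region was split into several peaks in 6.85% and 6.65% of cases in CKO and in 3.27% and 4.06% in Control. Peak width moved with genotype in the regions that both genotypes held, and the part of sequencing depth in this was not tested.

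Spike-in RNA also moved with genotype. On its minus strand the fold of the second EpiMark spike-in sequence was 11.2 and 16.5 in CKO lists, against 5.54 and 5.70 in Control lists, or 13.9 ± 3.71 and 5.62 ± 0.119 (mean ± SD, n = 2 each, exact permutation p = 0.333). On its plus strand the folds were 3.45 and 3.51 in CKO and 2.90 and 2.74 in Control. The part of this difference in the results that follow was not tested, and folds of CKO and Control lists are therefore set side by side without a test.

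Of 35554 regions held by both Control lists, 25731 (72.4%) were retained and 5568 (15.7%) were lost. Of 30997 regions held by both CKO lists, 2840 (9.16%) were gained. With lists of equal length, the 10000 peaks of highest −log10 p of each, the shares were 14.7% lost and 14.7% gained. Equal length brings these shares together by construction, so nothing is concluded from their likeness. The remaining regions went by single lists. A peak of 1 CKO list alone made 5519 regions, and a peak of 1 Control list alone made 6168. Another 4255 held peaks of both Controls and 1 CKO list, 2426 of both CKO lists and 1 Control list, and 1919 of 1 list of each group. Regions seen in 1 list only were 21.5% of all regions.

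Lost and gained regions were narrow and weak. Their median width was 274 bp for lost and 199 bp for gained, against 499 bp for retained regions. The median of the lower fold of the 2 lists was 3.63 for lost regions and 3.72 for gained ones, and in retained regions it was 5.42 in CKO and 5.87 in Control. When Control regions were ordered by their lower fold and cut into 5 groups of equal size, 30.9% of the weakest group were lost, then 29.3%, 14.9%, 3.01%, and 0.197% of the strongest group, where folds exceeded 8.23 and 14 regions were lost of 7111. For CKO regions the gained shares ran 19.1%, 14.03%, 9.55%, 2.92% and 0.177%. In both directions, the share called was lower at higher fold.

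Lost regions lay outside annotated genes and on the antisense strand more often than gained or retained ones. Outside any gene lay 18.8% of lost, 11.1% of gained and 10.5% of retained regions. Of the regions within 1 gene of known strand, 621 of 3244 lost regions (19.1%) were antisense, against 7.12% of gained and 8.26% of retained ones. Regions held by 1 Control list alone had shares like those of lost regions (19.8% outside genes, 20.8% antisense), and regions of 1 CKO list alone had shares like those of gained ones (11.2% and 7.96%). The tilt was therefore present in regions without replicate agreement as well. Per list, 10.99% and 11.3% of CKO peaks lay outside genes, against 13.2% in both Control lists, and 8.76% and 8.71% of CKO peaks were antisense, against 11.4% in both Control lists (exact permutation p = 0.333 for each).

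Position along genes differed between lost and gained regions at the 3′ end. Among sense regions of protein-coding genes, 26.1% of 2516 lost regions lay in the last 10% of the gene body, against 7.64% of 1715 gained and 23.1% of 15028 retained ones. The first 10% held 12.8% of lost, 19.9% of gained and 14.7% of retained regions. The last 1000 bp of the gene held 13.2% of lost, 2.97% of gained and 10.2% of retained regions. Regions of 1 list alone again showed the tilt, with 9.54% of those seen in 1 CKO list in the last 10% and 22.8% of those seen in 1 Control list. Across whole lists the last 10% held 19.9% and 20.1% of CKO peaks, against 22.9% and 23.2% of Control peaks, and the first 10% held 15.7% and 15.4% of CKO peaks, against 14.7% and 14.3% of Control peaks.

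**Figure D2:**
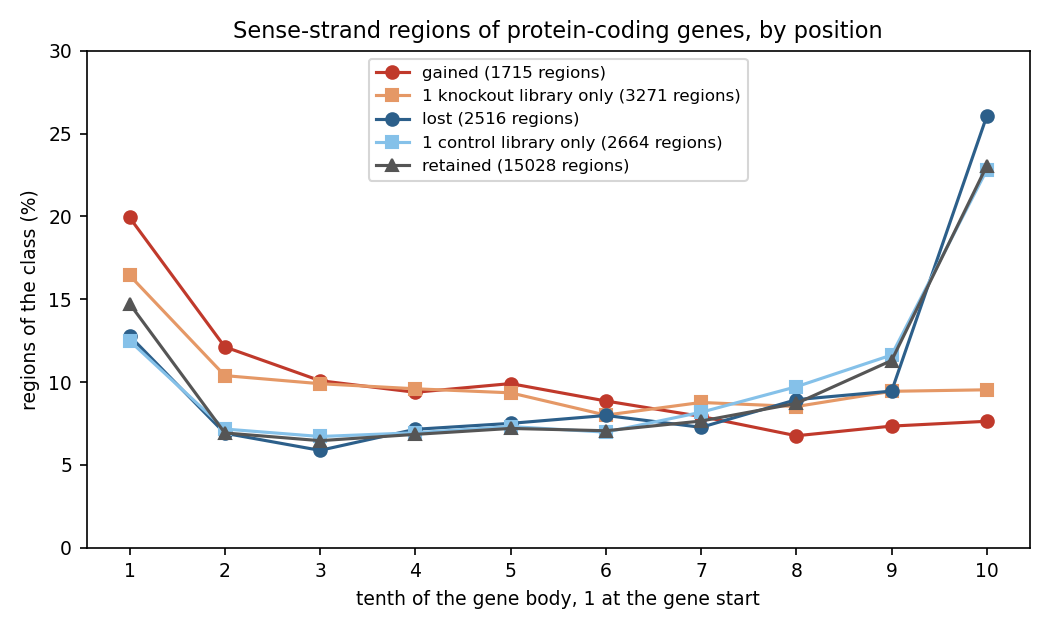
The share of regions of each class in percent is plotted against position in the gene body, in 10 bins with 1 at the gene start, for sense-strand regions of protein-coding genes. The gained line ends at 7.64% in the last 10% and the 1 knockout library line at 9.54%, whereas the lost, 1 control library and retained lines end at 26.1%, 22.8% and 23.1%.

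The lost regions of highest fold lay both in and outside genes. The highest lay outside genes on chromosome 3, from 96319841 to 96320115 on the minus strand, 2108 bp from the tRNA gene n-TNgtt4, with no peak in CKO and folds of 9.70 and 11.5 in Control. A region of the long noncoding RNA gene Gm41642 had folds of 9.46 and 11.1 in Control, and that gene lost both of its Control regions. Prdm15, a zinc finger regulator of pluripotency, lost one of 1131 bp with folds of 9.99 and 9.08. Gli1, a Hedgehog effector, had Control folds of 9.73 and 9.06 in a lost region, and Axin1, a scaffold of the beta-catenin destruction complex, had 8.56 and 10.5. Lost regions in Nhsl1, in Dhrs4 149 bp from its gene end, and antisense to the synaptic gene Erc2 had Control folds between 8.40 and 9.72. One more lay where Klf3 and Gm38457 overlap, with Control folds of 9.29 and 9.69, and cannot be given to either gene.

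The gained regions of highest fold had values close to those of the lost ones. Fkbp4, a co-chaperone of HSP90, gained a region 118 bp from its gene start with folds of 9.70 and 9.56 in CKO and no Control peak. Alms1, a centrosomal protein gene, gained one with folds of 9.84 and 9.43. Mbnl2, a splicing regulator, had 8.68 and 9.20, and Tlk2, a kinase of chromatin assembly, had 8.39 and 9.39. Uhrf1bp1l and Rpf1 gained regions with CKO folds between 8.24 and 9.16, and the pseudogenes Gm4735 and Gm14018 gained regions with folds between 8.33 and 10.96. Of the 10 lost regions of highest fold, 1 lay outside genes, and so did 1 of the 10 gained ones, 3103 bp from Psmb11.

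Outside genes, the 10 lost and 10 gained regions of highest fold lay at widely varying distances from the nearest gene. Lost ones lay 35 bp from Dapk3, 195 bp from Ubqln4 and 415 bp from Fam32a, with Control folds from 7.40 to 8.49, and others lay 1438 bp from Pla2g1b, 18157 bp from Mcf2 and 22308 bp from Gm9063. Of the gained ones, 1 lay 340 bp from Gm19601 with folds of 6.54 and 6.54, others were 3048 bp (Vmn2r-ps3), 3103 bp (Psmb11) and 3442 bp (Gm43549) from a gene, and others again 80201 bp (Gm232) or 196335 bp (Gm20837, on the Y chromosome) from the nearest gene. These regions were ranked by fold and distances were read afterwards, so they are a description of these regions.

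At the level of genes, 9109 were retained, 595 were lost and 325 were gained, when a gene was called from peak summits in its body alone, on either strand. The lost genes were 5.76% of 10327 genes marked in both Controls, and the gained ones 3.32% of 9777 marked in both CKO lists. With summits on the strand of the gene only, 370 genes were lost and 243 gained, a setting that also leaves out genes without a known strand. Loss of single regions within a retained gene was commoner: 3138 genes held at least 1 lost region and 2250 of them also held a retained one. In 547 genes lost and gained regions stood side by side. A summit can shift while its region is shared, so a gene and its region can be called differently; the pseudogenes Gm18412 and Ftl1-ps1 were called lost although their region was retained. When each list was cut to its 10000 peaks of highest −log10 p, 414 genes were lost and 380 gained, and 5 and 6 of these were among the genes called so with all peaks, so the calls rest on weak peaks.

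Complete loss of a multiply marked gene was rare. Of 3880 genes with at least 3 Control regions, 12 lost all of them, of which 10 are given here. Map3k15, a kinase of the MAP3K family, held 0 and 0 peaks in CKO and 4 and 5 in Control, with a best fold of 6.23 and 4.89 in Control. Hltf, a helicase-like factor of DNA damage tolerance, held 0 and 0 peaks in CKO and 3 and 3 in Control, with best folds of 5.09 and 5.92. Tiprl, a regulator of PP2A-type phosphatases, likewise held 3 and 3 Control peaks and none in CKO. Diablo, which antagonises inhibitors of apoptosis, held 0 and 0 peaks in CKO and 3 and 5 in Control, and Lmbrd1, a lysosomal cobalamin transporter, 0 and 0 in CKO and 5 and 3 in Control. Krtcap3 held 0 and 0 peaks in CKO and 4 and 3 in Control. In Pgghg, BC048644 and Vps51 a single CKO list still held 1 peak. Ndufa10, a subunit of respiratory complex I, lost its 3 Control regions but gained another, with 2 and 2 peaks in CKO and 4 and 4 in Control.

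Among 3416 genes with at least 3 CKO regions, all regions of 2 genes were gained. Fhit, a tumour suppressor in a fragile site, held 3 and 4 peaks in CKO, against 0 and 1 in Control, with best folds of 8.70 and 6.96 in CKO and 3.87 in the 1 Control list with a peak. Txnrd1, thioredoxin reductase, held 3 and 3 peaks in CKO and 2 and 2 in Control at other positions. The gene with the most gained regions was Fat4, an atypical cadherin, with 7 and 10 peaks in CKO and 0 and 1 in Control, and 6 of its regions were gained. Sptbn1, Vti1a, Utrn and Exoc4 gained 5 regions each beside 10 to 21 retained ones.

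The genes with the most lost regions kept others. Gucy1a2, a subunit of soluble guanylate cyclase, lost 9 of 43 Control regions and retained 27, with 31 and 37 peaks in CKO and 48 and 46 in Control. Its best fold was higher in CKO, 21.8 and 18.2, against 15.3 and 15.0 in Control. Bbs9, a component of the BBSome of cilia, lost 8 of 9, with 5 and 6 peaks in CKO and 9 and 11 in Control. Klhl13, an adaptor of a CUL3 ubiquitin ligase, lost 6 of 9 and kept 3, with 3 and 3 peaks in CKO against 9 and 9 in Control, while its median fold was 12.4 and 9.23 in CKO and 5.99 and 6.54 in Control. Nbeal2, needed for platelet granules, lost 5 of 6, with 1 and 2 peaks in CKO and 6 and 8 in Control. Tenm4 lost 6 regions and gained 4, and Grip1, Fhod3, Fars2 and Chd9 each lost 3 and gained 3.

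The strongest retained regions had high folds in both genotypes, with both CKO values above both Control values in each of the 5 named. Over all retained regions the median fold went the other way, 5.93 and 5.86 in CKO against 6.36 and 6.34 in Control. A 1239 bp region of Chd7, a chromatin remodeller, had folds of 34.4 and 31.1 in CKO and 29.9 and 28.9 in Control. Mocs3, of molybdenum cofactor synthesis, had 37.9 and 33.6 in CKO and 29.8 and 27.6 in Control, and Usp35, a deubiquitinase, had 41.3 and 36.8 in CKO and 33.5 and 27.2 in Control. Ankrd24 and Wdr81 had folds between 29.2 and 33.3 in CKO and between 27.4 and 29.1 in Control. The broadest retained region covered 16915 bp of Ahnak, with folds of 5.62 and 6.29 in CKO and 5.77 and 6.43 in Control, and that of the muscle gene Ttn spanned 14687 bp.

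To compare retained regions without relying on the scale of the folds, each of the 25731 was ranked by fold within each list, from 0 to 100. Ranks agreed more within a genotype than between genotypes. Spearman's rho across regions was 0.840 between the CKO lists and 0.884 between the Control lists, and lay between 0.709 and 0.723 for the 4 pairs of a CKO with a Control list. Regions are not independent replicates, so these values carry no p. In 505 retained regions (1.96%) both CKO percentiles lay at least 30 points below both Control percentiles, and in 633 (2.46%) they lay at least 30 points above.

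**Figure D3:**
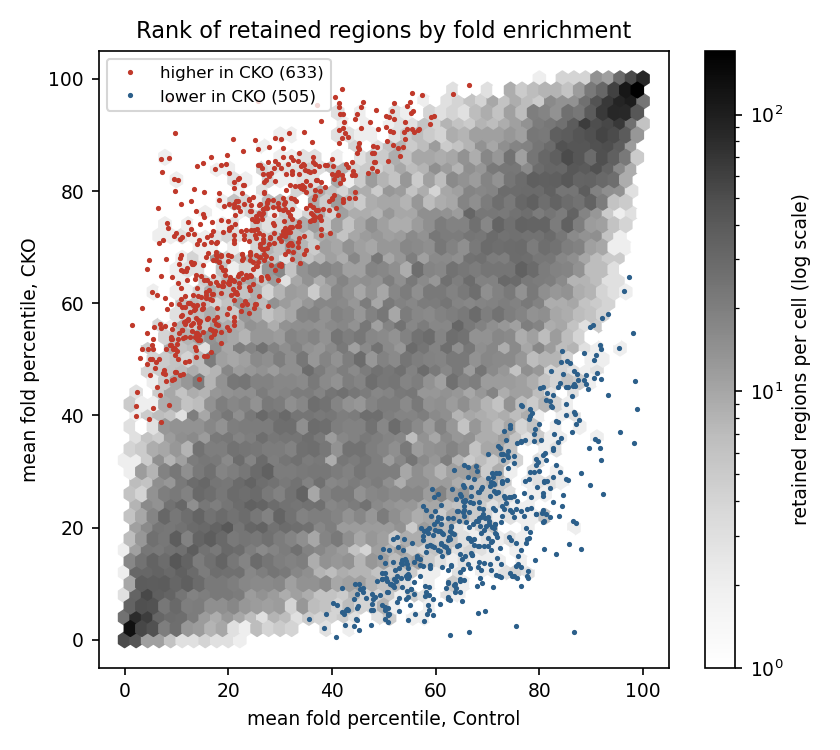
Mean fold percentile over the CKO lists (vertical, in points) is plotted against that over the Control lists (horizontal) for 25731 retained regions, as grey cells on a log scale of counts. Red points mark the 633 regions at least 30 points higher in both CKO lists and blue points the 505 at least 30 points lower, and the strongest regions sit together in the upper right corner.

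The regions that shifted in rank differed from other retained regions in strand and in their share at the gene end, and not in every feature as gained and lost regions did. Of sense regions of protein-coding genes, 8.11% of the higher set lay in the last 10% of the gene, against 29.4% of the lower set and 23.3% of other retained regions. Antisense regions made up 3.34% of the higher set, 11.9% of the lower set and 8.31% of the others. Their median width was 360 bp for the higher set, 576 bp for the lower set and 503 bp for the others, so the lower set was wider than other retained regions whereas lost regions were narrower. Outside genes lay 12.95% of the higher set, 12.7% of the lower set and 10.4% of the others. These regions were chosen by fold and not by position or strand.

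The widest upward gap, 81.8 points, was in a region of chromosome 5 where Gm42226 and AI506816 overlap, with folds of 15.2 and 19.6 in CKO and 2.75 and 3.55 in Control. Ybx1, which encodes an RNA-binding cold shock protein, came first among regions in a single gene, with a gap of 72.9 points. Its folds were 10.2 and 12.4 in CKO and 3.22 and 2.84 in Control, at percentiles of 81.4 and 89.8 against 8.54 and 5.67. Ncaph2, a condensin II subunit, had folds of 10.9 and 11.5 in CKO and 3.53 and 2.76 in Control at a site 127 bp from the gene start. Ppat, which opens purine synthesis, had 11.1 and 9.53 in CKO and 3.23 and 3.36 in Control, 488 bp from the start, and Lgr4, an R-spondin receptor, had 16.3 and 16.9 in CKO and 4.35 and 4.80 in Control, 132 bp from the start. Spag7, Zfp980 and Magi2 had gaps of 70.6, 69.4 and 63.1 points.

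In the other direction, Zfp934 had the widest gap of 78.3 points, with folds of 1.85 and 2.51 in CKO and 14.04 and 10.5 in Control. It belongs to the KRAB zinc finger family, whose near-identical members can share reads, so its values are uncertain. Arl6ip6 had folds of 2.87 and 1.78 in CKO and 9.43 and 9.499 in Control, at a site 40 bp from its start. Ttll5, a tubulin polyglutamylase, had 3.97 and 3.55 in CKO and 11.2 and 10.8 in Control. Ankrd13c had 3.47 and 3.48 in CKO against 9.30 and 10.4 in Control, and Inpp5b, an inositol phosphatase, had 1.98 and 2.15 in CKO against 7.82 and 7.61 in Control. Gstcd, Anapc10 and Pip5k1b had gaps between 59.5 and 60.0 points.

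The other 12 lists of the series took no part in defining the classes. In the Mettl3-line caRNA lists, lost regions overlapped a peak in 11.02 ± 0.825% of cases in Mettl3 CKO lists and in 23.2 ± 1.38% in Mettl3 Control lists (mean ± SD, n = 2 each). Gained regions did so in 71.2 ± 3.83% in CKO and 49.0 ± 3.41% in Control, and retained regions in 69.9 ± 2.15% in CKO and 81.4 ± 1.59% in Control. Lost and gained regions thus differed from each other in the direction of the genotype difference of the other line. Retained regions went the same way as lost ones, by -11.6 points against -12.2 (CKO minus Control). The lower presence in Mettl3 CKO lists was therefore not particular to lost regions. None of the exact permutation tests could go below p = 0.333. With the 10000 strongest peaks per list, the CKO minus Control difference was -35.8 points for lost regions and 2.66 points for gained ones. Only some of the regions were called alike in both lines: 456 lost regions overlapped a lost region of the Mettl3 line, 8.19% of the 5568 here and 8.64% of the 5303 there, while 59 overlapped a gained one. For gained regions the overlap was 353, 12.4% of the 2840 here and 6.15% of the 5756 there, and 12 overlapped a lost one. In the Mettl3 line as a whole, 16.4% of 32347 regions held by both Controls were lost. Of 33980 regions held by both Mettl3 CKO lists, 16.9% were gained. The same overlap was not counted for retained regions or for all regions, so these counts have no share to be set against.

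**Figure D4:**
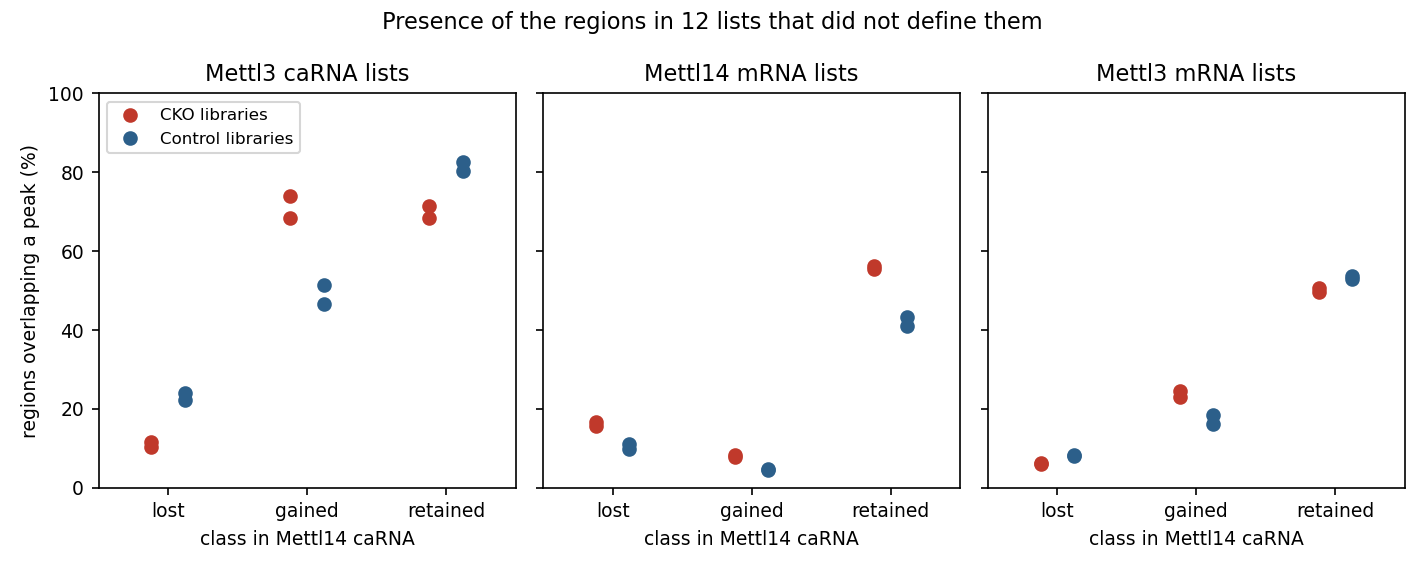
The percent of lost, gained and retained regions that overlap a peak on the same strand is plotted for each of the 12 lists that did not define the classes, with CKO lists in red left of Control lists in blue. In the Mettl3 caRNA lists the CKO points lie below the Control points for lost regions (means 11.02% and 23.2%) and above them for gained regions (71.2% and 49.0%). They also lie below them for retained regions (69.9% and 81.4%).

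Polyadenylated RNA of the Mettl14 line did not follow the caRNA classes. There, lost regions overlapped a peak in 16.1 ± 0.749% of cases in CKO lists and in 10.6 ± 0.838% in Control lists, and gained regions in 8.06 ± 0.398% and 4.67 ± 0.124% (n = 2 each). Retained regions did so in 55.8% in CKO and 42.2% in Control, so all 3 classes were found more often in CKO mRNA. In the mRNA of the Mettl3 line, the shares were 6.13% in CKO and 8.21% in Control for lost regions, and 23.7% in CKO and 17.3% in Control for gained ones. Retained regions had 50.1% in CKO and 53.3% in Control there, so the lower presence in CKO was not particular to lost regions. Gained regions were far less present in Mettl14-line mRNA than in Mettl3-line caRNA.

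The rank shifts could be followed in the Mettl3 line too. Of the 633 higher regions, 495 held a peak in all 4 Mettl3-line caRNA lists, where their median percentiles were 75.3 and 71.3 in Mettl3 CKO and 43.6 and 46.0 in Mettl3 Control. Of the 505 lower ones, 157 did so, with medians of 25.1 and 26.1 in Mettl3 CKO and 41.8 and 41.5 in Mettl3 Control. The groups did not overlap in either set. Of the 24593 other retained regions, 15080 held a peak in all 4 of those lists, with medians between 49.4 and 50.4. The medians of each set cover only the regions present there, which were a smaller part of the lower set.

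The genotype effect differed between the lines in how many peaks a list held. The mean difference of CKO minus Control was -3086 peaks in the Mettl14 line and 4179 in the Mettl3 line, a difference of -7265 (exact permutation p = 0.0556, the smallest that 36 relabellings allow). The effects on median width were -30 and -29.5 bp, and those on the share of antisense peaks -2.66 and -2.17 points, for which the exact permutation test of the difference gave p = 1 and p = 0.556. Peaks in noncoding RNA genes were 2.52% and 2.56% of CKO lists and 2.76% and 2.75% of Control lists in the Mettl14 line.

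Genes of 17 lists were read next, covering the m6A machinery, chromatin regulators, nuclear RNA decay, noncoding RNAs and cell state. Together they held 315 distinct genes, of which 231 were marked in both Controls and 233 in both CKO lists. The calls were 219 retained, 8 lost and 9 gained. The lost members were 8 of 231, against 5.76% of all genes, and the gained ones 9 of 233, against 3.32% of all genes. Neither count stands far from the background.

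**Figure D5:**
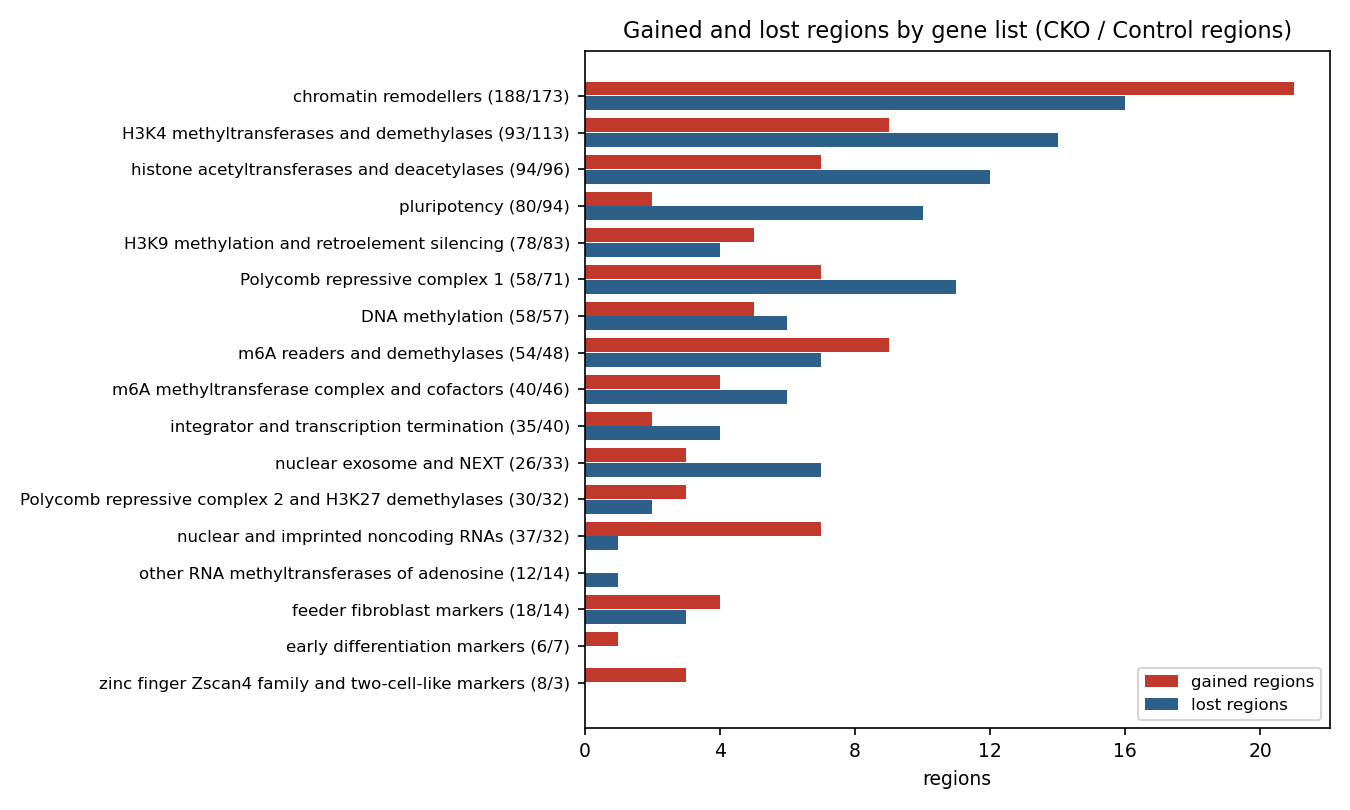
Horizontal bars count gained (red, upper bar) and lost (blue, lower bar) regions in the members of 17 gene lists, with the number of regions in both CKO and in both Control lists in brackets. Chromatin remodellers hold the most of both (21 gained and 16 lost), and noncoding RNAs hold 7 gained and 1 lost.

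Mettl14 itself, on chromosome 3, carried a single region, from 123368860 to 123369630 on the minus strand, with no peak in CKO and folds of 3.82 and 2.82 in Control. The lists do not measure RNA level, so this does not check the deletion, and the region was weak in Control too. Of the 9 genes of the methyltransferase complex and its cofactors, the other 8 were retained. Over all 9 genes, regions were lost in 6 of 46 cases (13.0%) and gained in 4 of 40 (10%), against 15.7% and 9.16% of all regions. Virma, the scaffold that links the complex to 3′ ends, lost 3 regions, with Control folds between 3.32 and 6.82, gained 1 and kept 5. Zc3h13, which holds the complex in the nucleus, gained 3 regions and kept 12. Wtap lost 1 region 2752 bp from its gene end, with Control folds of 3.32 and 3.08. Mettl3 was marked in all 4 lists, with best folds of 6.27 and 5.17 in CKO and 5.82 and 5.83 in Control, but no single region was shared by all 4.

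Readers and erasers held 7 lost regions of 48 (14.6%) and 9 gained of 54 (16.7%), against 15.7% and 9.16% of all regions, so the lost share was near that of all regions. Igf2bp3, which stabilises bound mRNA, was lost with weak Control folds of 1.68 and 2.28, and Rbmx, a nuclear reader whose sites m6A exposes, was lost with 3.84 and 2.83. The demethylase gene Fto lost 3 sense regions, with Control folds between 3.64 and 5.80, and retained 10. Alkbh5 lost 1 of 3. Ythdf2, a reader that directs mRNA decay, gained 2 regions, at 239 and 1416 bp from its start, the first with CKO folds of 7.19 and 4.24. Igf2bp2 gained 2, with CKO folds between 4.55 and 7.70, and Igf2bp1 gained 2 as well. Prrc2a gained 2 and lost 1. The retained regions of this list had a median CKO minus Control percentile of 7.86 points over 37 regions, against 0.106 over all 21286 retained regions in 1 gene. Feeder fibroblast markers moved further in that direction, with a median of 12.4 points and 9 of 11 regions higher, and their part in the readers' value was not tested. At the other end, the other adenosine methyltransferases had a median of -13.3 points over 11 regions and the integrator and termination list one of -5.43 over 31.

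Fmr1, the FMRP gene, carried a retained region 168 bp from its start with folds of 15.8 and 7.53 in CKO and 4.57 and 2.13 in Control, at percentiles of 94.7 and 66.1 against 25.6 and 1.39. It was 1 of 2 regions of that list in the higher set, with Ythdf3, a YTH reader, at folds of 8.89 and 10.3 in CKO and 4.95 and 5.79 in Control. The m6Am methyltransferase gene Pcif1, of the other adenosine methyltransferases, held a region 262 bp from its end with folds of 4.60 and 3.13 in CKO and 7.999 and 8.51 in Control. These single regions were picked from the lists after their values were seen.

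The label was checked against pluripotency genes. Of 30 genes, 25 were marked in both Controls and 25 in both CKO lists, and 24 were retained, among them Nanog, Pou5f1, Klf4 and Esrrb. Sox2, Dppa3, Dppa5a and Tcl1 had no assigned peak in any list. Sox2 lies inside Sox2ot, and a summit in overlapping genes was given to neither, so a peak at Sox2 could not be seen. Nanog had folds of 6.47 and 5.42 in CKO and 4.36 and 5.81 in Control, and Klf4 had 13.7 and 15.9 in CKO and 14.01 and 14.9 in Control. The list lost 10 of 94 regions (10.6%) and gained 2 of 80 (2.5%), against 15.7% and 9.16% of all regions. Lin28a, an RNA-binding protein that blocks let-7 maturation, was the list's lost gene, with no CKO peak, and its region 1693 bp from the gene end had folds of 7.99 and 8.07 in Control. Its paralogue Lin28b lost 1 region of folds 6.82 and 6.86 and kept 6. Stat3, the transducer of LIF, was gained, with folds of 3.95 and 3.22 in CKO and no Control peak. Esrrb lost 2 of 15 regions, one of them 2065 bp from its end.

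Early differentiation markers were seldom marked, and feeder fibroblast markers more often. Of 21 early differentiation markers, 6 had a peak in any list, 3 were marked in both Controls and 4 in both CKO lists. The 3 marked in both Controls were retained, and the list held 5 retained regions. T, Mixl1, Gata4, Gata6, Sox17, Foxa2, Pax6 and Cdx2 had no assigned peak, and Krt8, an epithelial keratin, was gained with CKO folds of 3.31 and 3.84. Of 19 feeder fibroblast markers, 8 were marked in both groups, and collagens were among them. The list lost 3 of 14 regions (21.4%) and gained 4 of 18 (22.2%), against 15.7% and 9.16% of all regions. Col1a1, Col1a2 and Col5a1 each gained 1 region, Vim lost 2, and Fn1 lost 1 and gained 1. A retained region of Col6a1 had folds of 8.32 and 6.41 in CKO and 3.58 and 3.24 in Control. Lum, Dcn, Thy1 and Postn had no assigned peak. A peak does not give the level of an RNA, and the part of other cells in these results was not tested.

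The list of Zscan4 genes and other markers of a transient state like the cleavage embryo had 15 members, of which 8 were marked in both CKO lists and 3 in both Controls. The gained members were 3 of 8, against 3.32% of all genes, and 3 of 8 CKO regions were gained, against 9.16% of all regions. Eif1a, which belongs to neither the Zscan4 nor the Usp17l family, was 1 of the members marked in all 4 lists. Zscan4b had folds of 4.54 and 3.99 in CKO, Usp17lb had 5.39 and 4.75, and Usp17lc had 6.20 and 7.05, each without a Control peak. Zscan4f had 6.20 and 6.13 in CKO and 4.42 and 4.41 in Control. Members of both families are nearly identical copies that share reads, so peaks of 1 copy cannot be given to it with certainty and the 3 calls are not independent.

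DNA methylation genes were all marked in both CKO lists (14 of 14), against 12 of 14 in both Controls, and 2 of the 14 were gained, against 3.32% of all genes. Their regions were gained in 5 of 58 cases (8.62%) and lost in 6 of 57 (10.5%), against 9.16% and 15.7% of all regions. Dnmt3l, the cofactor of de novo methylation, was gained, with folds of 8.02 and 8.81 in CKO. Dnmt3b, a de novo methyltransferase, was gained with 2 regions, the first 184 bp from its start with folds of 4.64 and 7.37. Dnmt3a, the other de novo enzyme, was retained, with best folds of 18.98 and 18.8 in CKO and 25.4 and 23.9 in Control. Tet2, a 5-methylcytosine dioxygenase, lost 3 of 11 regions, including 1 antisense, and the demethylation glycosylase Tdg lost 2 of 3, at 2213 and 1463 bp from its gene end.

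Polycomb genes held 1 gene-level call. The list of repressive complex 2 and the H3K27 demethylases lost 2 of 32 regions (6.25%) and gained 3 of 30, and no gene of it was lost or gained. The complex 1 list lost 11 of 71 (15.5%) and gained 7 of 58 (12.1%). Over all regions 15.7% were lost and 9.16% gained. Pcgf5, of a variant complex 1, was lost as a gene, with Control folds of 4.25 and 3.99. Regions of Ring1, Rnf2, Pcgf2, Pcgf6, Bcor and L3mbtl2 were lost with Control folds between 3.15 and 5.91. Kdm2b, which recruits the complex to CpG islands, lost 1 region and gained 1.

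Genes of H3K4 methylation lost 14 of 113 regions (12.4%) and gained 9 of 93 (9.68%), against 15.7% and 9.16% of all regions. Dpy30, a core subunit of the methyltransferase complexes, was gained with 2 regions, with CKO folds between 3.06 and 3.52. Wdr5, another core subunit, lost 2 sense regions, 1743 and 650 bp from its gene end, with Control folds between 2.24 and 4.29. Kmt2c and Kmt2d each lost 2, Kdm5b lost 2 and gained 2, and Men1, the menin gene, lost 1. Another region of Men1, 248 bp from its start, had folds of 3.57 and 3.65 in CKO and 8.95 and 9.96 in Control, in the lower set.

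The H3K9 methylation and retroelement silencing list lost 4 of 83 regions (4.82%) and gained 5 of 78 (6.41%), against 15.7% and 9.16% of all regions. Ehmt2 lost a region 1442 bp from its end and its partner Ehmt1 gained one, with CKO folds of 4.38 and 4.93. Cbx1, an HP1 protein, gained 1 region and lost another. Tasor, of the HUSH silencing complex, held a retained region with folds of 6.52 and 6.60 in CKO and 3.88 and 3.57 in Control.

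Chromatin remodeller genes lost 16 of 173 regions (9.25%) and gained 21 of 188 (11.2%), against 15.7% and 9.16% of all regions. Smarca1, an ISWI ATPase, was lost as a gene, but its region was antisense, with Control folds of 4.70 and 3.99. The lost regions of Arid1b (2) and of Arid1a (1) were antisense too, as were 2 of the 3 lost in Chd9. Gained regions were mostly sense, as in Smarcc2 with CKO folds of 6.49 and 6.85, Brd9 with 5.47 and 5.35 at 167 bp from its start, and Smarca5 with 2 regions. A retained region of Arid1a, 2430 bp from its gene end, had folds of 12.2 and 11.3 in CKO and 5.04 and 4.80 in Control. Histone acetyltransferase and deacetylase genes lost 12 of 96 regions (12.5%) and gained 7 of 94 (7.45%), against the same shares of all regions. Hdac6 had 1 retained region in each of the shifted sets. Its region 367 bp from the gene start had folds of 10.5 and 10.6 in CKO and 5.97 and 5.47 in Control, and that 1511 bp from the gene end had 3.81 and 4.59 in CKO and 7.64 and 9.59 in Control.

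Of the nuclear exosome and its NEXT adaptor, which degrade unstable nuclear RNA, 13 of 16 genes were marked in both Controls and 10 in both CKO lists, and 2 of the 13 were lost, against 5.76% of all genes. Exosc8 had Control folds of 4.25 and 5.02, 524 bp from its start, and Exosc9 had 1.92 and 2.07. The list lost 7 of 33 regions (21.2%) and gained 3 of 26 (11.5%), against 15.7% and 9.16% of all regions. A region of Zcchc8, a NEXT subunit, was lost with Control folds of 6.58 and 5.08. The integrator and termination list lost 4 of 40 regions, the strongest in Ints1 with Control folds of 8.43 and 7.92, and gained 2 of 35.

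The list of nuclear and imprinted noncoding RNAs gained more regions than it lost, which was not so for long noncoding RNA genes as a whole. Its 19 annotated genes lost 1 of 32 regions (3.12%), in Neat1, and gained 7 of 37 (18.9%), against 15.7% and 9.16% of all regions. Over all regions, long noncoding RNA genes held 93 gained and 201 lost ones, which were 3.27% of gained and 3.61% of lost regions, against 2.44% of retained ones. Airn, the antisense transcript that silences Igf2r in cis, gained 3 regions, with CKO folds between 3.36 and 5.87, and retained 5. Its best fold was 8.46 and 9.07 in CKO, against 5.20 and 5.80 in Control. H19, an imprinted RNA, was gained with folds of 5.31 and 3.79 in CKO. Rian, Sox2ot and Snhg11 each gained 1. Malat1 retained 3 regions and Meg3 retained 4, with none lost or gained. Meg3 had best folds of 4.72 and 4.68 in CKO and 4.77 and 4.35 in Control. Xist and Kcnq1ot1 had no assigned peak, which for genes that overlap others can come from the rule of a single gene.

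MicroRNA hairpins rarely carried a region. Of 1005 hairpins in the RefSeq table, 64 lay under one on the same strand: 47 were retained, 4 lost, 2 gained and 11 held by other combinations of lists. Over all 54426 regions, 47.3% were retained, 10.2% lost and 5.22% gained, so the lost and gained hairpins lay below those shares. The lost ones were Mir5125 in Srrm2, Mir7024 in Nelfa, Mir7026 in Ep400 and Mir7051, with Control folds between 2.56 and 5.62. Mir7071 in Heatr3 was gained, with CKO folds of 5.17 and 4.28, as was Mir7079 in Rpl13, with 1.57 and 1.76. These are peaks on host transcripts, and nothing here separates a hairpin from its host.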

How the data were processed

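Peak lists of chromatin-associated RNA from Mettl14 CKO and Mettl14 Control cells were used, 2 libraries each, with 12 further lists of the series read for presence. The 16 input samples were not analysed here. Each library came with 1 peak list, by strand, as the authors deposited it. Its fold enrichment is a ratio to the authors' background, and its −log10 p and −log10 q are the deposited caller values, with the lowest −log10 q of the 4 lists between 2.00 and 2.02. The deposited summit offset, a score in bases from the peak start, gave the summit. The submitters' processing notes name mm10, CASAVA, Trimmomatic 0.38, HISAT2 2.1.0 and SAMtools 1.9. Neither the peak caller nor its scaling of input is known here, and depth is unknown.

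Spike-in peaks were set aside. Overlaps, genes and ranks were computed in Python 3.11.15 with pandas 2.3.3, numpy 2.4.6 and SciPy 1.17.1, and the region calls were tested on simulated data. Genes (49997) came from the RefSeq table of GRCm38.p6, and gene strand (27025 genes) from its promoter table; regions in genes without a strand were left out of the sense, antisense and position shares. No exon annotation or genome was used. Presence over 2 against 2 lists has no test per region, so calls are counts. Library measures were compared with two-sided exact permutation tests, and folds were not tested between lists. Named items were the regions of highest lower fold per class, inside and outside genes, the genes with the most lost, gained and retained regions or with all regions lost or gained, noncoding genes lost or gained, list members lost or gained, and Mettl14 and Mettl3. The comparison, its members and the gene lists were chosen with earlier results of these data known, and the rank measure, the promoter windows and the hairpins were added after the lists were seen. A few items that the naming rule picked are not reported here.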

Additional observations from a re-analysis of the deposited data

Results flagged for a closer look

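The genotype effect on the number of peaks per caRNA list ran in opposite directions in the 2 lines, with all CKO lists below their Controls in the Mettl14 line and all above them in the Mettl3 line, and differed by -7265 peaks (exact permutation p = 0.0556, the smallest possible). The share of peaks in noncoding RNA genes did the same, with a difference of -0.347 points (exact permutation p = 0.0556). Outside the main measurement, the second spike-in sequence had a minus-strand peak with mean folds of 13.9 in Mettl14 CKO and 5.62 in Mettl14 Control caRNA lists. In the Mettl3 line the same peak had folds of 9.52 and 9.83 in CKO and 8.57 and 8.26 in Control.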

How the results depend on the processing

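The lists rank weak peaks near a caller's limit, and with 2 libraries a group no comparison can pass 0.05. Of 144 values recomputed, 33 were counted as moved and 0 changed sign. Some values not counted as moved still lay well away from the reported one. The share of CKO regions gained was 9.16% as reported and 13.7% with summits within 100 nt. Genes lost were 595 as reported and 414 with the 10000 peaks of highest −log10 p per list. No paired analysis was possible because presence calls have no fitted test, and for the values per library 2 pairs allow fewer relabellings than the exact test used, which cannot pass 0.05 either. With the 10000 peaks of highest −log10 p per list, 14.7% of Control regions were lost and 14.7% of CKO regions gained, 3987 genes were retained, list members lost and gained were 5 and 15, and of 414 genes lost and 380 gained 5 and 6 had been called so with all peaks. The calls of genes are thus mostly different genes at that limit, and equal list length brings the shares of regions together by construction. There, presence in the Mettl3-line caRNA lists differed (CKO minus Control) by -35.8 points for lost and 2.66 for gained regions. The library differences were -1.54 Mb covered, -154.5 bp median width, -8.36 points of peaks of 1000 bp or more, -0.35 outside genes, -1.22 antisense, 1.87 in the first 10%, -4.66 in the last 10% and -0.16 in noncoding RNA genes. With folds of at least 2 the antisense difference was -2.71. With summits within 100 nt the gained regions differed by 8.39 points in the Mettl3 line. Choices made after seeing the data gave 370 genes lost on the strand of the gene, -14.1 points for lost regions without antisense and intergenic ones, and, for gaps of 20 and 50 points, 1383 and 56 regions lower and 1543 and 63 higher in CKO.

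Leaving out 1 library, so that its partner alone decides presence, can only add calls. It gave 20.9% to 22.3% of Control regions lost and 12.5% to 15.8% of CKO regions gained (15.8% without CKO replicate 1), 824 to 927 genes lost (927 without CKO replicate 2 and 897 without Control replicate 2), 456 to 581 genes gained (581 without CKO replicate 1, 538 without CKO replicate 2 and 537 without Control replicate 1), 9 to 11 list members lost and 11 to 14 gained (14 without CKO replicate 1). Presence in the Mettl3 line then differed by -13.3 to -9.14 points for lost and by 18.8 to 20.8 points for gained regions.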
